A study of Mus musculus with 6 samples.

Results

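The genes of serpins, cathepsins and cystatins were examined in mouse regulatory T (Treg) cells cultured with or without sorafenib (Sora), a multikinase inhibitor used against liver cancer. Members were every row of the count table whose symbol was Cts followed only by letters or digits, or began with Serpin, a letter from a to i and a digit, or with Cst and then a digit or a letter from a to c, together with Lgmn. The rule took 58 of 22939 genes. They comprised 32 serpins, 15 genes of the cathepsin group including Lgmn, 10 cystatins, and Cstad, which the letters of the rule take although it is no cystatin and which was counted apart. RNA of 6 libraries was compared, 3 from control Treg (ctrl-Treg) cells and 3 from Sora-treated Treg (Sora-Treg) cells. In the study, naive CD4+ T cells were taken from C57BL/6J-background mice that carry GFP knocked into Foxp3, and were turned into Treg cells with antibodies to CD3 and CD28, TGF-β1, and antibodies against IFN-γ and IL-4, in both groups alike, and cells carrying the GFP reporter were sorted. The dose of Sora, the culture time of these libraries and the age of the reporter mice are not given in the sources used here. The labels number the replicates without saying whether they come from separate animals or cultures, so the p-values measure the spread between these libraries, which may be technical.

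Serpins are a superfamily of mostly protease inhibitors that trap serine proteases, and in some cases cysteine proteases, through a reactive loop that the target cuts. Cathepsins are the proteases of lysosomes and secretory granules, and most are cysteine proteases, with the aspartic proteases Ctsd and Ctse and the serine carboxypeptidase Ctsa as exceptions. Lgmn is an asparaginyl endopeptidase of the same compartment. Cystatins and stefins are small reversible inhibitors of cysteine cathepsins. In lymphocytes these families are known for protecting the cell from its own granule proteases, for processing granzymes to their active form, and for breaking down the invariant chain of MHC class II molecules.

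Of the 58 members, 30 were counted deeply enough to be tested, namely 12 serpins, 14 cathepsins with Lgmn and 4 cystatins. Among the 28 others, Cst8 reached 14 counts and Cstad 12 counts in a library, and none of the rest exceeded 9 counts. A member was called when its edgeR adjusted p was under 0.05 and its log2 fold change was beyond 1 in either direction. By that rule 6 members were called higher and 6 lower in Sora-Treg cells. Of all 13463 genes tested, 6.30% were called higher, 4.97% lower and 11.3% either way. The 12 called members were spread unevenly over the families. They comprised 8 of 12 tested serpins, 3 of 14 cathepsins and 1 of 4 cystatins. At any fold, 13 members passed higher and 9 lower, against 29.7% and 29.9% of all genes, and 8 did not pass. The 22 that passed compare with 59.6% of all genes. The groups did not overlap in 22 of the 30 members, against 63.7% of all genes. These are counts and not tests of the families.

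Short stretches of 5 promoters are shown because they belong to members described below and hold a sequence motif that was searched for. They were read from RefSeq on GRCm38.p6, and 23 of the 30 tested members had an entry of 300 bases, 250 before the start of the gene and 50 after it. The first pair is from neighbouring genes of the Serpina3 cluster on chromosome 12, both of which were lower in Sora-Treg cells. Each is printed 5′ to 3′ on the strand of the gene, with the letters of TTCNNNGAA in capitals, a pattern read by STAT factors. The pattern was also found in the promoter of Serpinb6a, which was slightly higher in Sora-Treg cells and is not printed.
Serpina3g, chr12:104236084-104236146, plus strand: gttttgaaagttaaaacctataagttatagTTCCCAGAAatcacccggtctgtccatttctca
Serpina3f, chr12:104214393-104214461, plus strand: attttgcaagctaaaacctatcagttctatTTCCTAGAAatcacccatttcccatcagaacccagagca

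The other 3 are from cathepsin genes and hold CACGTG, in 2 of them within the longer palindrome TCACGTGA, which is shown in capitals there. CACGTG is read by many basic helix-loop-helix factors, among them TFEB and its relatives, which are known regulators of lysosomal genes.
Ctsa, chr2:164833730-164833772, plus strand: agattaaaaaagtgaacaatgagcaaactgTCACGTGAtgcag
Ctsd, chr7:142387889-142387956, minus strand: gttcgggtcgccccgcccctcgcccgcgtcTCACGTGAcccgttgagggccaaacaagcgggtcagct
Ctsf, chr19:4855056-4855121, plus strand: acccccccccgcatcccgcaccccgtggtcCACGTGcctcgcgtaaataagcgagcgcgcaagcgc

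Serpinf1, which encodes pigment epithelium-derived factor, a secreted serpin without protease inhibitor activity, rose from a very low level. It had 0.939, 0.659 and 0.720 CPM (read counts relative to library size, with TMM scaling) in ctrl-Treg and 12.9, 10.3 and 10.4 CPM in Sora-Treg cells. The control values rest on 37, 24 and 23 counts. The groups were widely separated, with a log2 fold change of 3.84 ± 0.17 (SE, adjusted p = 7.25e-15 by edgeR). In RNA of a sorted population, a change in the share of cells that express a gene and a change in RNA per cell cannot be told apart. The related Serpinf2, which encodes the plasmin inhibitor alpha-2-antiplasmin, had between 12 and 24 counts in every library and did not pass (log2 fold change 0.21 ± 0.42, SE, adjusted p = 0.680 by edgeR). Serpini1, the gene of neuroserpin, had 3.76 to 4.44 CPM in ctrl-Treg and 3.62 to 4.01 CPM in Sora-Treg cells, and did not pass either (adjusted p = 0.495 by edgeR).

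Serpine2 encodes protease nexin-1, an inhibitor of thrombin and plasminogen activators. Its level was 62.5, 56.5 and 64.2 CPM in ctrl-Treg and 32.8, 33.2 and 33.4 CPM in Sora-Treg cells. The groups did not overlap, and the log2 fold change of -0.88 ± 0.05 (SE, adjusted p = 1.15e-12 by edgeR) passed the p threshold but stayed inside the fold limit. Per length it stood at 24.9 ± 1.69 FPKM in ctrl-Treg and 12.4 ± 0.105 FPKM in Sora-Treg cells (counts relative to transcript length and library size, SD, n = 3).

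Serpinc1, the gene of antithrombin, was called lower. It had 17.1, 15.4 and 17.9 CPM in ctrl-Treg and 6.65, 4.67 and 5.31 CPM in Sora-Treg cells, with a log2 fold change of -1.60 ± 0.11 (SE, adjusted p = 2.34e-11 by edgeR). Of the 50-base stretches in its longest annotated transcript, 58.8% also occur in transcripts of Zbtb37, a gene on the opposite strand. Reads of the shared part cannot be assigned without strand, and how the counting treated strand is not given in the sources used here. Zbtb37 itself stood at 47.9 ± 1.28 CPM in ctrl-Treg and at 47.2 ± 1.21 CPM (SD, n = 3) in Sora-Treg cells.

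Clade B serpins are the intracellular branch of the family, and its tested members moved in both directions. Serpinb1a, which encodes an inhibitor of elastase-like granule proteases, rose from 3.30, 3.46 and 3.85 CPM to 11.5, 12.6 and 12.02 CPM. The log2 fold change was 1.77 ± 0.11 (SE, adjusted p = 5.62e-12 by edgeR). Serpinb9 encodes a known inhibitor of granzyme B. It fell from 27.9, 24.0 and 26.4 CPM to 10.2, 12.1 and 12.1 CPM, with a log2 fold change of -1.18 ± 0.08 (SE, adjusted p = 2.89e-11 by edgeR). Gzmb, the gene of the protease that Serpinb9 inhibits, moved in the opposite direction in the same libraries, from 9.92 to 11.3 CPM in ctrl-Treg cells to 374 to 381 CPM in Sora-Treg cells. Per length, Gzmb had 241 ± 2.63 FPKM and Serpinb9 2.07 ± 0.192 FPKM in Sora-Treg cells, against 7.35 ± 0.488 and 5.10 ± 0.399 FPKM in ctrl-Treg cells (SD, n = 3).

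The paralogs Serpinb6a and Serpinb6b had the highest levels per length of the serpins in control cells, at 50.02 FPKM for Serpinb6b and 29.6 FPKM for Serpinb6a, and they separated on treatment. Serpinb6b had 116, 119 and 117 CPM in ctrl-Treg and 55.9, 57.1 and 57.9 CPM in Sora-Treg cells. Its log2 fold change was -1.04 ± 0.04 (SE, adjusted p = 1.40e-16 by edgeR), just past the fold limit. Serpinb6a, at 61.2, 59.0 and 58.5 CPM in ctrl-Treg cells, was slightly higher in Sora-Treg cells, at 73.1, 73.2 and 71.7 CPM (log2 fold change 0.29 ± 0.04, SE, adjusted p = 2.04e-06 by edgeR). The 2 transcripts have 8 stretches of 50 bases in common. Serpinb6a overlaps Ripk1 on the opposite strand, which had 93.2 to 94.2 CPM in ctrl-Treg and 119.9 to 125 CPM in Sora-Treg cells, and 20.7% of its 50-base stretches occur in other genes, mostly in an antisense RNA.

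Serpina3g encodes an intracellular serpin that inhibits cysteine cathepsins and is known from activated T cells. It fell from 26.5, 28.8 and 28.2 CPM to 11.4, 10.8 and 10.5 CPM, with a log2 fold change of -1.35 ± 0.07 (SE, adjusted p = 3.22e-13 by edgeR). Its neighbour Serpina3f had 43, 32 and 30 counts in ctrl-Treg and 2, 5 and 2 counts in Sora-Treg cells. Its log2 fold change was -3.35 ± 0.51 (SE, adjusted p = 5.33e-06 by edgeR) and lay between -3.92 and -3.07 over fits that each omitted 1 library, so its size is only roughly known. Of the 50-base stretches of Serpina3g and Serpina3f, 16.0% and 10.7% recur elsewhere in the Serpina3 cluster. In the promoters printed above both genes carry TTCNNNGAA, as does that of Serpinb6a, which was slightly higher (log2 fold change 0.29). The carriers were 3 of 10 tested serpins with a promoter entry, against 9.55% of 27025 genes with one, expressed here or not. The stretches of Serpina3g and Serpina3f resemble each other closely, so their matches are not independent. The core of the interferon-stimulated response element was found in the promoters of Serpinb6a and Serpinb9, against 3.99% of all genes. Of 10 tested cathepsins with an entry, Ctsc held the former and Ctso and Ctss the latter, and neither was in a cystatin promoter. Both motifs were searched on both strands over the 300 bases, and a match is a description and not a binding site.

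**Figure D1:**
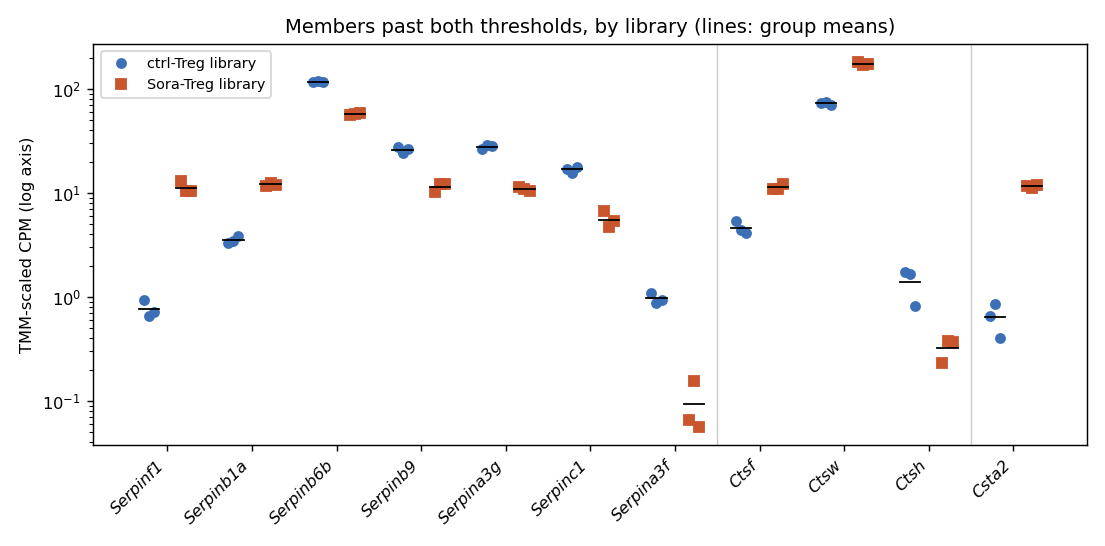
TMM-scaled CPM (log axis) of 11 called members in each of the 6 libraries, with ctrl-Treg libraries as circles, Sora-Treg libraries as squares and group means as short lines. The groups do not overlap in any of them, which their choice by p and fold makes likely, nor in 63.7% of all genes tested. The widest gaps are those of Serpinf1, Serpina3f and Csta2.

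Over the 12 tested serpins, 3 were called higher and 5 lower, against 6.30% and 4.97% of all genes. The median log2 fold change of these serpins was -0.51, against -0.0035 over all genes tested.

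Most of the proteases on which secreted serpins act had too few counts to be tested. Of 14 genes for plasminogen activation and secreted serine proteases, 5 could be tested. None was called higher and 2 were called lower, against 6.30% and 4.97% of all genes. Those called lower were St14, the gene of matriptase, with a log2 fold change of -1.21 ± 0.08, and Hpn, the gene of hepsin, with -1.35 ± 0.28 (SE, adjusted p = 2.21e-11 and 0.000280 by edgeR). Furin, the most abundant of the list, at 886 CPM in ctrl-Treg and 962 CPM in Sora-Treg cells on average, passed as higher inside the fold limit. Its log2 fold change was 0.12 ± 0.02 (SE, adjusted p = 0.000229 by edgeR), and it did not pass in 4 of 17 alternatives. Plau, the gene of urokinase, had 20 to 31 counts in every library, and Plat, the gene of the tissue-type activator, had 2 to 21 counts and was not tested. Of 8 genes for receptors and cofactors that bind serpins or clear serpin complexes, 6 were tested and none was called. At any fold 3 of them passed higher and 2 lower, against 29.7% and 29.9% of all genes. Those that passed included Vldlr with a log2 fold change of 0.97 ± 0.03 and Sorl1 with -0.81 ± 0.05 (SE, adjusted p = 8.02e-17 and 4.20e-12 by edgeR). Serpinh1, the collagen chaperone of the family, had at most 7 counts in a library. Of 15 tested genes for collagens and their maturation 3 were called higher and 2 lower, against 6.30% and 4.97% of all genes. Their median log2 fold change was 0.15. P4hb, a subunit of prolyl 4-hydroxylase and a general disulfide isomerase, changed by 0.93 ± 0.02 on the log2 scale (SE, adjusted p = 4.78e-19 by edgeR). It stayed inside the fold limit and was not among the genes called.

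**Figure D2:**
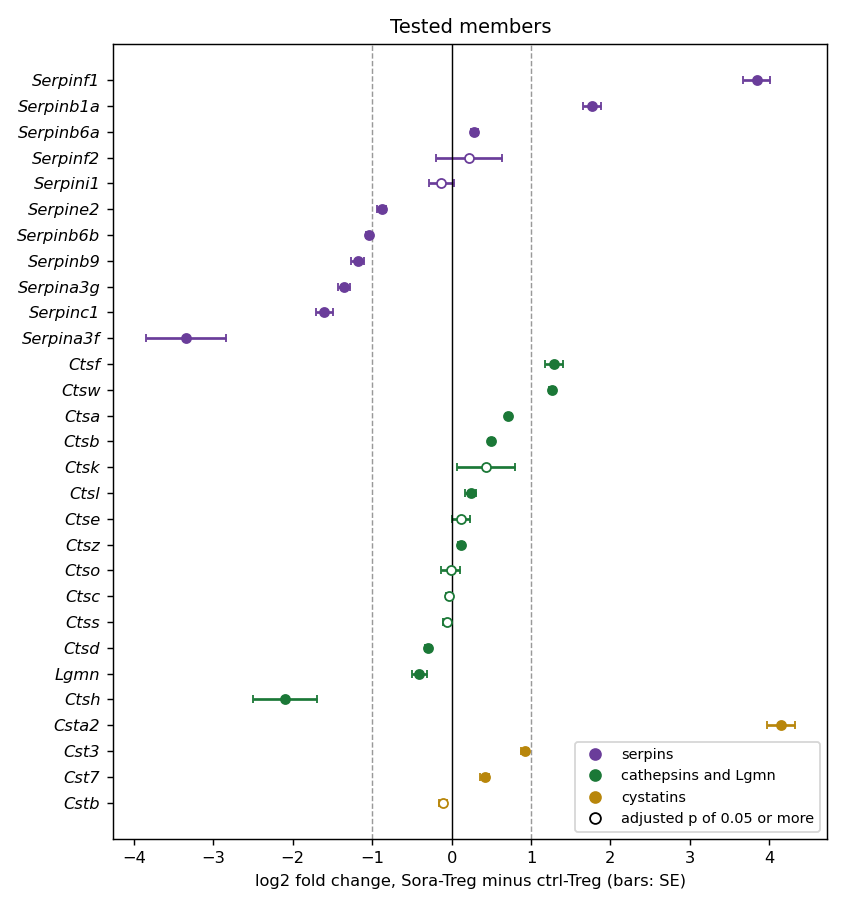
Log2 fold change (Sora-Treg minus ctrl-Treg) of 29 tested members in order of size within each family, with bars for the SE and broken lines at the fold limit of 1 in each direction. Filled points passed an adjusted p of 0.05 and open points did not, and the serpins drawn span a wider range, from -3.35 to 3.84, than the cathepsins, from -2.10 to 1.29.

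Cathepsins spanned a narrower range of log2 fold changes than serpins. Of 14 tested genes in that family, 2 were called higher and 1 lower, against 6.30% and 4.97% of all genes. Their median log2 fold change was 0.12. At any fold 6 passed higher and 3 lower, against 29.7% and 29.9% of all genes.

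Ctsw, which encodes a cathepsin of cytotoxic lymphocytes and NK cells, was the member of its family with the highest level per length in Sora-Treg cells. It had 73.4, 75.1 and 69.6 CPM in ctrl-Treg and 180.2, 169.8 and 175 CPM in Sora-Treg cells. Each Sora-Treg library exceeded each ctrl-Treg library, with a log2 fold change of 1.27 ± 0.04 (SE, adjusted p = 3.81e-18 by edgeR). Ctsw overlaps Fibp on the opposite strand, but none of its 50-base stretches occurs in another gene, and Fibp stood at 28.6 to 29.4 CPM in ctrl-Treg and 29.3 to 32.9 CPM in Sora-Treg cells. Ctsf, a lysosomal cysteine cathepsin, rose by a similar fold from a lower level, from 5.33, 4.42 and 4.10 CPM to 11.0, 10.9 and 12.1 CPM (log2 fold change 1.29 ± 0.12, SE, adjusted p = 2.24e-09 by edgeR).

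Ctsc, the dipeptidyl peptidase that removes the propeptide of granzymes, did not pass, with 85.9 to 89.0 CPM in ctrl-Treg and 82.8 to 87.2 CPM in Sora-Treg cells (log2 fold change -0.04 ± 0.04, SE, adjusted p = 0.436 by edgeR). Its substrates and their partners were mostly higher in Sora-Treg cells. Of 7 tested genes for granule proteases and their partners, 5 were called higher and none lower, against 6.30% and 4.97% of all genes. The log2 fold changes were 5.14 ± 0.04 for Gzmb, 8.63 ± 0.12 for Gzma and 3.15 ± 0.20 for Prf1 (SE, adjusted p = 3.54e-28, 4.25e-24 and 5.71e-12 by edgeR). The ctrl-Treg value of Gzma rests on 5 or 6 counts in a library, so its fold is only roughly known.

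Ctsa encodes the protective protein that holds beta-galactosidase and neuraminidase in a lysosomal complex. It rose from 72.2, 73.7 and 75.9 CPM to 120.3, 121 and 123 CPM, a log2 fold change of 0.72 ± 0.04 (SE, adjusted p = 7.94e-14 by edgeR) that stayed inside the fold limit. Both partners in the complex rose as well, Glb1 by 0.996 ± 0.05 and Neu1 by 0.40 ± 0.05 on the log2 scale (SE, adjusted p = 2.10e-14 and 1.38e-06 by edgeR). Of the 50-base stretches of Ctsa, 15.8% also occur in other genes, chiefly Pltp and Neurl2 on the opposite strand, which had at most 163 and 9 counts in a library, against 2424 to 4369 for Ctsa.

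Ctsb was the cathepsin with the most counts. It had 264, 262 and 257 CPM in ctrl-Treg and 375, 369.6 and 365 CPM in Sora-Treg cells, with a log2 fold change of 0.50 ± 0.03 (SE, adjusted p = 2.35e-13 by edgeR). Of its 50-base stretches, 15.4% are shared with Fdft1 on the opposite strand, which itself had 49.0 to 53.2 CPM in ctrl-Treg and 68.3 to 72.5 CPM in Sora-Treg cells. Ctsd, the main aspartic protease of lysosomes, moved against Ctsa and Ctsb. It had 218, 228.5 and 207 CPM in ctrl-Treg and 183, 178 and 171 CPM in Sora-Treg cells, with a log2 fold change of -0.30 ± 0.04 (SE, adjusted p = 2.57e-07 by edgeR). Of its 50-base stretches, 36.6% are shared with a predicted gene on the same strand that is not a row of the table. Ctse, the other aspartic protease of the group, had 6.67 to 8.38 CPM in ctrl-Treg and 7.78 to 9.06 CPM in Sora-Treg cells and did not pass (adjusted p = 0.378 by edgeR).

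Ctsz, a carboxypeptidase, was among the 2 most abundant cathepsins per length in both groups, at 97.9 ± 1.84 FPKM in ctrl-Treg and 98.2 ± 1.76 FPKM in Sora-Treg cells (SD, n = 3). With TMM scaling its level was 136, 138 and 133 CPM in ctrl-Treg and 148, 149 and 144 CPM in Sora-Treg cells, a log2 fold change of 0.12 ± 0.03 (SE, adjusted p = 0.00328 by edgeR) that was 0.0044 (adjusted p = 0.918 by edgeR) with scaling by library totals. Whether Ctsz passed the p threshold thus depended on the scaling. Its gene overlaps Nelfcd on the opposite strand, with no 50-base stretch in common. Ctso (8.83 to 12.5 CPM in ctrl-Treg and 9.15 to 11.96 CPM in Sora-Treg cells) and Ctsk, a collagen-degrading cathepsin with 20 to 39 counts in every library, did not pass (adjusted p = 0.951 and 0.315 by edgeR). Ctsq, a cathepsin known from placenta, had 1 count in all 6 libraries together.

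Ctss, Ctsl and Lgmn are proteases known to break down the invariant chain or antigens in the MHC class II pathway. Ctss was abundant, with 103, 111 and 103 CPM in ctrl-Treg and 97.5, 107 and 98.9 CPM in Sora-Treg cells. The groups overlapped, and the difference did not pass (log2 fold change -0.06 ± 0.04, SE, adjusted p = 0.217 by edgeR), but passed as lower without Sora-Treg replicate 2 (-0.10, adjusted p = 0.0333 by edgeR) and with scaling by library totals (-0.18, adjusted p = 0.000741 by edgeR). Ctsl had 25.2, 26.0 and 21.7 CPM in ctrl-Treg and 27.8, 29.3 and 29.2 CPM in Sora-Treg cells, with a log2 fold change of 0.24 ± 0.07 (SE, adjusted p = 0.00496 by edgeR) that was 0.12 (adjusted p = 0.124 by edgeR) with scaling by library totals and 0.41 (adjusted p = 0.00139 by edgeR) against ctrl-Treg replicate 3 alone. Of its 50-base stretches, 28.1% also occur in other genes, most of them in an antisense RNA. Lgmn was lower in Sora-Treg cells, at 9.45, 8.65 and 10.4 CPM against 13.2, 12.5 and 12.1 CPM, with a log2 fold change of -0.41 ± 0.09 (SE, adjusted p = 0.000705 by edgeR).

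Ctsh, a cathepsin with aminopeptidase activity, was called lower. It had 1.73, 1.65 and 0.814 CPM in ctrl-Treg and 0.231, 0.376 and 0.365 CPM in Sora-Treg cells, from 68, 60 and 26 counts against 7, 12 and 13 counts. The groups did not overlap, and the log2 fold change was -2.10 ± 0.40 (SE, adjusted p = 0.000112 by edgeR). Ctrl-Treg replicates 1 and 2, in which Ctsh was highest, also had more RNA of myeloid marker genes. The 14 myeloid markers summed to 115.2 and 117 CPM in those libraries, to 29.3 CPM in ctrl-Treg replicate 3, and to 25.9, 50.6 and 25.1 CPM in the Sora-Treg libraries. Of 13 tested markers 10 were called lower, against 4.97% of all genes. In none were the groups free of overlap, whereas they were in 63.7% of all genes. Lyz2, the most abundant of them, had 47.5, 47.9 and 12.6 CPM in ctrl-Treg and 5.63, 21.2 and 4.66 CPM in Sora-Treg cells, and no marker was at 0 in any library. With ctrl-Treg replicate 3 as the only control library, the log2 fold change of Ctsh was -1.31 (adjusted p = 0.134 by edgeR) and that of Lgmn was -0.35 (adjusted p = 0.0582 by edgeR). The lone control library is assumed there to vary like the others. The part of myeloid RNA in these 2 differences was not tested further.

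**Figure D3:**
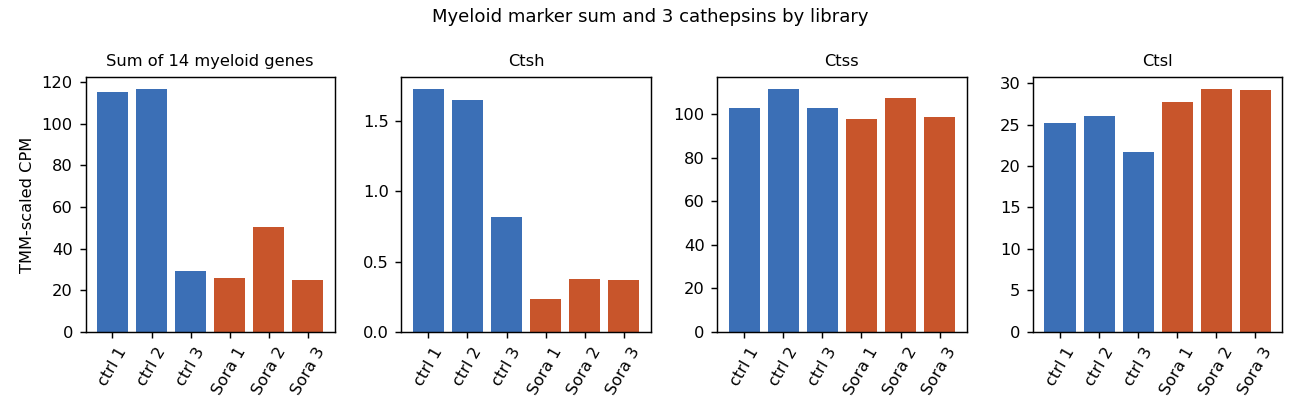
TMM-scaled CPM in each of the 6 libraries of the sum of 14 myeloid marker genes and of Ctsh, Ctss and Ctsl (blue bars for ctrl-Treg, orange bars for Sora-Treg, each panel with its own axis from 0). Ctrl-Treg replicates 1 and 2 stand out in the marker sum and in Ctsh, whereas Ctss lies between 97.5 and 111 CPM and Ctsl between 21.7 and 29.3 CPM in all libraries.

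Of 9 tested genes of the MHC class II pathway outside the proteases, 1 was called higher and 5 lower, against 6.30% and 4.97% of all genes. Their median log2 fold change was -1.498. Cd74, which encodes the invariant chain itself, fell by 1.99 on the log2 scale and H2-Eb1 by 2.10, while H2-Ab1 rose by 1.74 (SE of 0.06, 0.06 and 0.04, adjusted p = 1.41e-18, 6.14e-19 and 1.55e-20 by edgeR). Summed B cell and dendritic cell markers were also lower in Sora-Treg cells, at 6.11 to 7.67 CPM against 9.89 to 11.0 CPM and at 4.28 to 4.86 CPM against 15.3 to 17.2 CPM. The dendritic cell sum was mostly Zbtb46. Flt3 had 28 to 33 counts in ctrl-Treg and 7 to 13 counts in Sora-Treg cells. In any library Itgax had 0 to 8 counts, and Xcr1 and Cd209a had 0 to 2. The part of B cells and dendritic cells in the class II differences was not tested.

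Lysosomal genes outside the cathepsins were examined in 2 lists. Of 33 tested genes for lysosomal enzymes and membrane proteins, 4 were called higher and none lower, against 6.30% and 4.97% of all genes. At any fold 18 passed higher and 5 lower, against 29.7% and 29.9% of all genes. The median log2 fold change of the 33 was 0.17. Acp5, the gene of tartrate-resistant acid phosphatase, and Smpd1, the gene of acid sphingomyelinase, rose by 1.34 ± 0.04 and 0.86 ± 0.04 on the log2 scale (SE, adjusted p = 6.03e-19 and 8.73e-14 by edgeR). Of 11 genes for sorting of lysosomal enzymes and for the TFEB family, none was called, 4 passed higher at any fold and 3 lower, with a median log2 fold change of -0.058. The lower ones were M6pr, the gene of the small mannose 6-phosphate receptor, with -0.27 ± 0.03, Flcn with -0.18 ± 0.04 and Tfe3 with -0.22 ± 0.05 (SE, adjusted p = 6.14e-08, 0.000513 and 0.000688 by edgeR). The motif CACGTG was present in the promoters of 5 of 10 tested cathepsins with an entry, namely Ctsa, Ctsd, Ctsf, Ctsl and Lgmn. Its share was 8.09% over 27025 genes with an entry, whether or not they were expressed here, and the share among tested genes alone was not computed. TCACGTGA, which contains it, was present in Ctsa and Ctsd, against 1.125% of genes. Carriers of CACGTG went both ways, since Ctsa and Ctsf rose and Ctsd and Lgmn fell. No tested serpin or cystatin with an entry held either motif.

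Cystatins were the family with the fewest tested members, 4 of 10. Csta2, of the stefin A group of cytoplasmic cathepsin inhibitors, was the only one called. It had 0.660, 0.851 and 0.407 CPM in ctrl-Treg and 11.5, 11.2 and 11.8 CPM in Sora-Treg cells, from 26, 31 and 13 counts against 350, 358 and 422 counts. The log2 fold change was 4.15 ± 0.18 (SE, adjusted p = 3.07e-15 by edgeR), a 17.7-fold difference. Of the 590 stretches of 50 bases in its transcript, 130 are shared with Cstdc4, a stefin-type gene outside the rule that was named after its values were seen. Cstdc4 rose too, from 14, 5 and 5 counts to 331, 357 and 306 counts, with a log2 fold change of 5.50 ± 0.24 (SE, adjusted p = 4.32e-15 by edgeR) that was 6.09 without ctrl-Treg replicate 1 and 5.25 without ctrl-Treg replicate 2. Reads may be divided between the 2 genes. Csta3, also chosen after its values were seen, had 0 counts in every ctrl-Treg library and 4, 2 and 1 counts in the Sora-Treg libraries and was not tested.

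Cst3, which encodes the secreted inhibitor cystatin C, had 46.6, 50.7 and 46.6 CPM in ctrl-Treg and 92.1, 90.3 and 89.9 CPM in Sora-Treg cells. The groups did not overlap, and the log2 fold change of 0.92 ± 0.04 (SE, adjusted p = 1.67e-14 by edgeR) stayed inside the fold limit. Cst7 encodes cystatin F, an inhibitor of Ctsc in granules, and rose by 0.41 ± 0.06 on the log2 scale (SE, adjusted p = 3.89e-06 by edgeR), from 25.6, 27.1 and 24.9 CPM to 34.9, 32.4 and 36.1 CPM. Cstb, the gene of stefin B, had 40.5, 40.2 and 37.8 CPM in ctrl-Treg and 36.4, 35.8 and 38.02 CPM in Sora-Treg cells and did not pass (log2 fold change -0.10 ± 0.05, SE, adjusted p = 0.0897 by edgeR). No cystatin was called lower by edgeR or DESeq2, and in the main edgeR fit none was lower at an unadjusted p under 0.05. In 5 of 17 alternatives, however, Cstb passed the adjusted p threshold as lower, with a log2 fold change down to -0.22. Together the family held 154 to 166 FPKM in the ctrl-Treg libraries and 217 to 225 FPKM in the Sora-Treg libraries.

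Cathepsin inhibitors also exist outside the symbols of the rule, some of them stefins such as Stfa1. Of 7 such genes in the table, 2 were tested and both were called higher, against 6.30% of all genes. Ctla2a, which encodes a protein resembling the propeptide of Ctsl and inhibiting cathepsins of that kind, had 47.6, 48.4 and 51.7 CPM in ctrl-Treg and 308, 306 and 318 CPM in Sora-Treg cells. Its log2 fold change was 2.66 ± 0.04 (SE, adjusted p = 3.42e-24 by edgeR), and 30.4% of its 50-base stretches occur in other genes, so its level may include reads of theirs. Ctla2b rose by 1.31 ± 0.12 (SE, adjusted p = 2.36e-09 by edgeR), but 96.7% of its 50-base stretches occur in other genes, so its own reads are uncertain. Per length Ctla2a stood at 36.8 ± 1.59 FPKM in ctrl-Treg and 214 ± 4.33 FPKM in Sora-Treg cells, above every cystatin in the latter, where Cst3 led with 109.6 ± 1.58 FPKM (SD, n = 3).

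**Figure D4:**
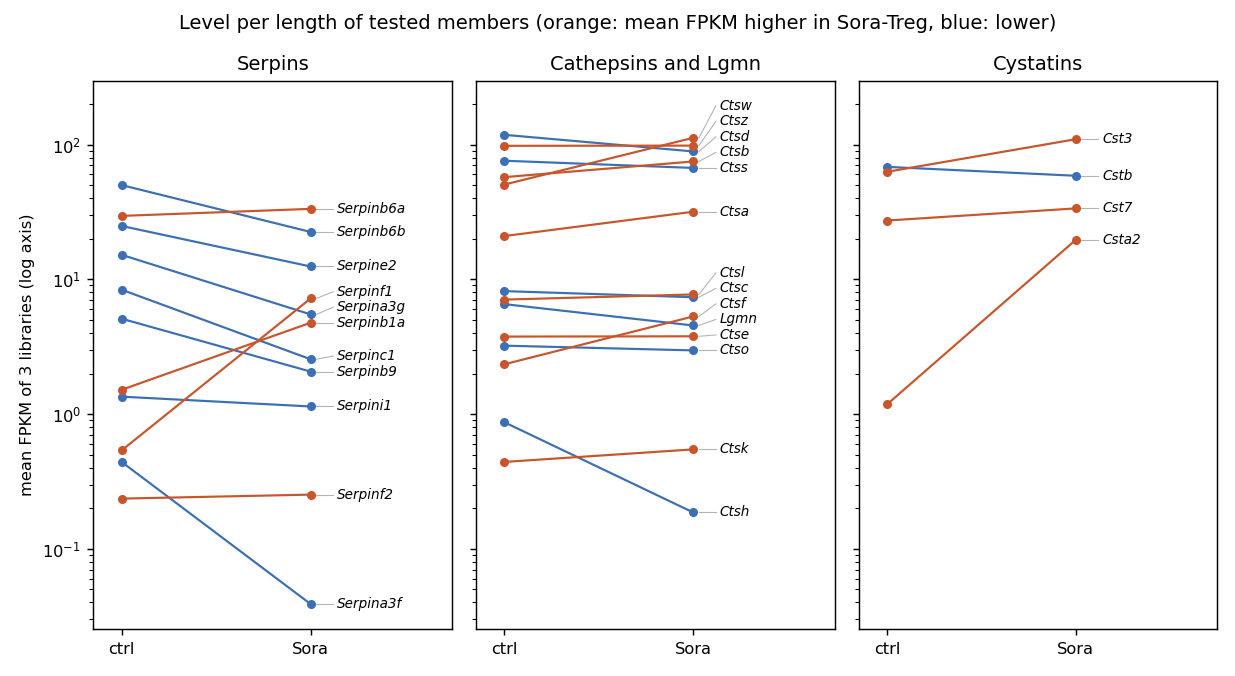
Mean FPKM over 3 libraries (log axis) of 29 tested members in ctrl-Treg and Sora-Treg cells, by family, with orange lines for a higher and blue lines for a lower mean in Sora-Treg cells. Ctsw passes to the top of the cathepsins in Sora-Treg cells, at 112 FPKM, while Serpinb6b goes from 50.02 to 22.5 FPKM.

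By level per length, the leading cathepsins of ctrl-Treg cells were Ctsd at 118 ± 5.82 FPKM, Ctsz and Ctss at 75.9 ± 3.37 FPKM. In Sora-Treg cells they were Ctsw at 112 ± 3.51 FPKM, Ctsz and Ctsd at 88.9 ± 2.95 FPKM, followed by Ctsb at 74.9 ± 1.06 FPKM and Ctss at 67.1 ± 3.43 FPKM (SD, n = 3). Among cystatins, Cstb at 68.3 ± 2.64 FPKM and Cst3 at 62.8 ± 2.96 FPKM lay close together in ctrl-Treg cells, and Cst3 led Cstb, at 58.7 ± 1.80 FPKM, in Sora-Treg cells. The 14 cathepsins tested and Ctsq summed to 438 to 466 FPKM in ctrl-Treg and 499 to 512 FPKM in Sora-Treg cells.

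Depth was similar in all libraries, with total counts from 30727686 to 37717324, and 3 counts corresponded to 0.0762 to 0.0988 CPM. The labelled cell type was checked with markers. Genes of T and Treg cell identity summed to 4641 to 4691 CPM in ctrl-Treg and 7997 to 8112 CPM in Sora-Treg cells, and Foxp3 ranged from 252 to 269 CPM and from 268 to 277 CPM. Most of the rise in the sum came from Il2ra, from 1933 to 3793 CPM on average, and Ctla4, from 383 to 1107 CPM. Cd4 (679 and 708 CPM) and Ikzf2 (147 and 149 CPM) changed little. Of 10 such genes tested, 9 passed higher at any fold and none lower, against 29.7% and 29.9% of all genes. Foxp3 and Cd4 were among the 9, with small log2 fold changes of 0.074 and 0.061. The dendritic cell sum given above came mostly from Zbtb46 and the B cell sum mostly from Cd79b. Neutrophil and mast cell markers never exceeded 0.477 CPM in sum, and CD8 T cell markers summed to between 12.6 and 15.1 CPM in all libraries. The CD8 sum was mostly Cd8b1. Cd8a was lower in Sora-Treg cells, at 1.62 CPM against 2.65 CPM on average (log2 fold change -0.71 ± 0.22, SE, adjusted p = 0.00872 by edgeR). With 3 libraries a group, the smallest p of an exact permutation test on 1 gene is 0.1, so each p given here comes from the fit across all genes.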

How the data were processed

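The authors deposited a table of raw read counts for 22939 gene symbols in 6 libraries, and FPKM values for the same genes, which equal the deposited count divided by a gene length and by the library total. The methods of the study name Bowtie2 and GRCm38, whereas the submitters' processing notes name fastp, HISAT2, HTSeq, DESeq2, R 3.2.0 and GRCm39, so the build is uncertain. No count depends on coordinates given here, which come from RefSeq on GRCm38.p6. Strand handling is not given in the sources used here.

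Groups came from the treatment labels. Counts were tested by quasi-likelihood in edgeR 4.0.16 under R 4.3.3 (TMM scaling, filterByExpr, 13463 genes, Benjamini-Hochberg adjustment over all of them), without covariates. The SE is the one implied by the F statistic. CPM compares libraries and FPKM compares genes. Total counts were 30727686 to 37717324, and a floor of 3 counts covers counting error only. Every pair of replicates differed by more than sampling noise (chi-square of 3.48 to 6.23 per degree of freedom). On simulated counts with 200 genes changed by 1.5 on the log2 scale, edgeR recovered 100% over 13444 genes, DESeq2 1.42.0 100% and limma 3.58.1 on log2(FPKM + 1) 82.5%. The changed genes were drawn from well-counted genes, went up and down in equal number and had the same fixed dispersion. The simulation therefore does not cover members with few counts or the choice of scaling.

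Each tested member was named except 1, which is in the counts of members but is not reported here, with untested ones of at least 10 counts, and up to 5 genes of each other list by adjusted p. Neu1, Plau, Plat, Zbtb37, Fibp, Fdft1, Nelfcd, Ripk1, Pltp, Neurl2, Cstdc4 and Csta3 were added after their values were seen. Members and lists were chosen with earlier results of these data known. Transcripts of GENCODE M21 were compared for identical 50-base stretches in place of a planned comparison of protein sequences, which was not made here. Alternatives were RLE, upper quartile and library-total scaling, no filter and a CPM of at least 1 in 3 libraries, DESeq2, limma on log2(FPKM + 1) and log2(FPKM + 0.1), a replicate block, and each library left out. Use of ctrl-Treg replicate 3 as the only control was chosen after seeing the data.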

Additional observations from a re-analysis of the deposited data

How the results depend on the processing

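Over up to 17 alternatives, 20 of the 30 tested members and 23 of 25 genes of the other lists kept their direction and their side of the adjusted p threshold in each that gave a value. Some filters removed Ctsk, Ctsh, Serpinf2 and Serpina3f, which had 14 alternatives each, and Hpn, which had 15. Leaving out a library moved no family's count of calls, which stayed at 3 serpins higher and 5 lower, 2 cathepsins higher and 1 lower, and 1 cystatin higher and 0 lower, while calls over all genes ranged from 836 to 874 higher and 634 to 751 lower. Limma on log2(FPKM + 1), with or without a filter, called 3 serpins lower and 1 cathepsin higher, because Serpinb9, Serpina3f and Ctsf came inside the fold limit or the filter. The call of Ctsh was lost, giving 0 cathepsins lower, with a CPM of at least 1 in 3 libraries, in the limma fits and with ctrl-Treg replicate 3 as the only control. Without a filter 2 cystatins were called higher, the second being Csta3. Over all genes, limma called 274 higher and 189 lower with a pseudocount of 1, 373 and 371 with 0.1, and 274 and 185 with 1 and no filter. Library-total scaling shifted all genes by -0.115 on the log2 scale, under which, as in the 3 limma fits, Ctsz and Ctsl did not pass and Ctsc (-0.15), Ctss (-0.18) and Cstb (-0.22) passed as lower (values from library totals). Ctss and Cstb also passed as lower with upper quartile scaling (-0.10 and -0.14), and Ctss without Sora-Treg replicate 2 (-0.10). Members that had not passed changed sign without passing. The log2 fold change of Ctso was 0.0020 with the replicate block, -0.13 to 0.12 over fits that each omitted 1 library (0.00040, 0.12 and 0.097 without ctrl-Treg replicate 1, ctrl-Treg replicate 2 and Sora-Treg replicate 3), and 0.28 with ctrl-Treg replicate 3 as the only control, where that of Serpini1 was 0.0032. That of Serpinf2 ranged from -0.066, without Sora-Treg replicate 1, to 0.44, without Sora-Treg replicate 2. Hpn lost its call (-1.11) with that lone control. On log2(FPKM + 1), which understates changes of low genes, Serpinf1 changed by 2.41 and Prf1 by 1.34, and without a filter Serpina3f by -0.47, Ctsh by -0.64 and Hpn by -0.57. Library-total scaling gave Serpinb6a 0.17. The cause of these changes was not tested. Deviations of same-numbered libraries from their group means had correlations of -0.044, 0.059 and 0.030. With 3 libraries a group these cannot show whether the numbers mark pairs. Of 6 libraries, 3 correlated best with their own number in the other group. With the number as a block the families' counts of calls were as without it and all genes gave 850 higher and 673 lower. Depth limits what can be said of the 28 untested members.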
